A study of Mus musculus with 3 samples.

Results

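Fat cells form from fibroblast-like precursors in a transcriptional cascade and then fill with triglyceride, and 10 genes of that programme were followed here in mouse embryonic fibroblasts. They comprise 3 regulators (Pparg, Cebpd and Zfp423), genes of fatty acid uptake and binding (Lpl and Fabp4), genes of triglyceride synthesis and droplet coating (Agpat2 and Plin2), genes of triglyceride breakdown (Lipe and Pnpla2), and the fat cell hormone gene Adipoq. The members were taken as every probe on the array whose RefSeq transcript belongs to 1 of these genes, which gave 17 probes. Of the 10 genes, 9 were measured well above background, through 16 of the probes, among 18485 genes or transcripts tested and 33269 on the array.

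The samples were primary mouse embryonic fibroblasts, mixed connective tissue cells grown out of E12.5 embryos. They were left untreated and grown in DMEM with 10% serum. Each of 3 Agilent arrays held RNA of a culture labelled SA1-null in the dye Cy3 and RNA of a culture labelled wild type (WT) in the dye Cy5, with 1 µg of RNA labelled per sample. SA1, encoded by Stag1, is a subunit of cohesin, a ring-shaped complex that keeps sister chromatids paired and folds chromatin into loops. The arrays are numbered as biological replicates 1, 2 and 3. The labels name neither the allele nor the strain, and they do not say how many embryos stood behind a culture.

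In adipogenesis, early factors such as C/EBPδ help switch on PPARγ, the nuclear receptor that drives the fat cell programme. PPARγ in turn acts with other C/EBP proteins on genes of fatty acid uptake, binding and storage. Embryonic fibroblasts can be turned into fat cells by hormones in the medium, and cultures without these hormones hold few or no mature fat cells.

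Stag1, the targeted gene, went against the labels. Its log2 ratios of Cy3 (labelled SA1-null) over Cy5 (labelled WT) were 3.34, 3.74 and 3.47 on replicates 1, 2 and 3 by its brightest probe (mean 3.52 ± 0.21, SD, n = 3, limma adjusted p = 0.0273). Of 3 further Stag1 probes, 2 had means of 3.53 ± 0.35 and 2.17 ± 0.53. The fourth probe was not well above background in the channel labelled WT on any array, so no fold is given for it, and its ratios of 1.22, 0.18 and 0.36 were positive too. Which part of Stag1 was removed is not stated in the labels. Why every probe was higher in the channel labelled SA1-null was not tested. Because every array had the same dye order, dye and genotype cannot be told apart. Every log2 ratio below is Cy3 over Cy5, positive where the channel labelled SA1-null was the brighter one, and all signs would turn over if the labels were exchanged. Replicate 1 lay on a slide of its own. The SD of log2 ratios over all genes was 0.84 on it, against 0.34 on replicate 2 and 0.54 on replicate 3.

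None of the 9 measured members passed an adjusted p of 0.05 (0 of 9), against 58 of all genes (0.314%), of which 2 were higher and 56 lower in the channel labelled SA1-null. With the slide as a term in the fit, Pparg was at 1.42 and Cebpd at -1.11. Replicate 1 is the only array of its slide, so that fit takes its residual from replicates 2 and 3 alone. Calls made in it leave out the spread of replicate 1 and are given with the processing settings at the end. At an unadjusted p under 0.05 there were 2 members, Cebpd and Agpat2, against 1384 of all genes (7.49%). Pparg and Agpat2 lay above 0 on every array, a pattern held by 13.3% of all genes. Cebpd, Plin2 and Pnpla2 lay below 0 on every array, as did 19.1% of all genes. The other 4 measured members had ratios of both signs. The median of the members' mean log2 ratios was -0.35, against -0.025 over all genes. It was -0.62, -0.069 and -0.13 on replicates 1, 2 and 3, and -0.070 without replicate 1. The members' mean ratios thus ran from 1.09 for Pparg to -0.97 for Cebpd, both of them regulators. In bulk RNA of mixed cultures, fewer cells of a type and less RNA per cell cannot be told apart.

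**Figure D1:**
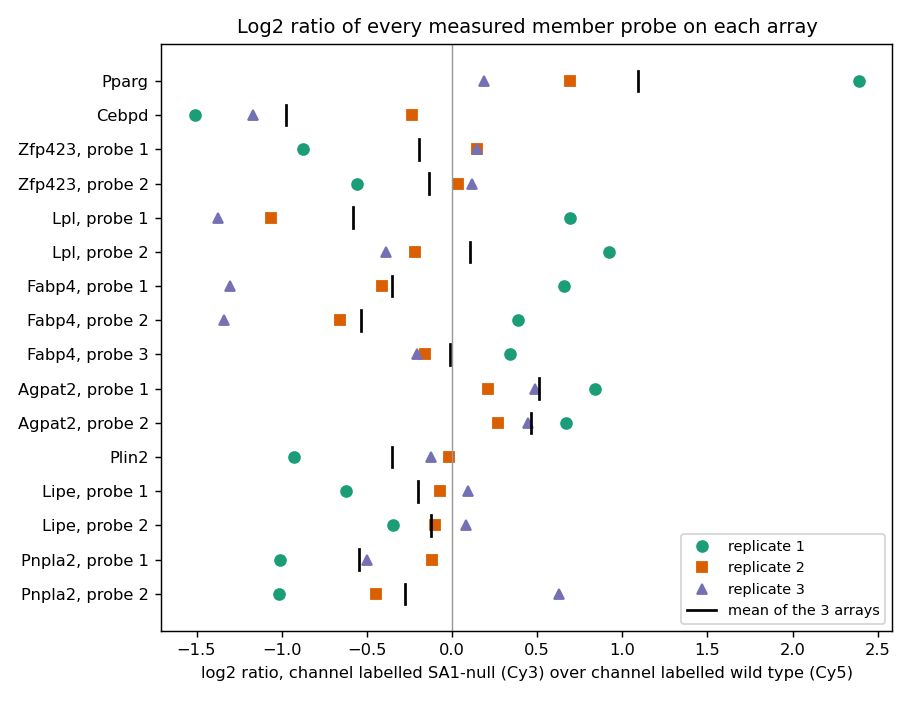
Log2 ratio of Cy3 (labelled SA1-null) over Cy5 (labelled WT) (x axis) for each of the 16 measured member probes (y axis), with 1 symbol per array and a line at the mean of the 3 arrays. Probe 1 is the brightest probe of its gene. The Pparg and Agpat2 symbols all lie right of 0, and replicate 1 holds the outermost symbol of most probes.

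RefSeq promoters were at hand for 7 of the 10 genes, in 11 windows that run from 250 bases before to 50 bases after an annotated start. The windows below belong to the measured genes whose main probe had 1 sign on all arrays and that have an entry, in build GRCm38.p6, each written in the direction of its gene. Pparg has 3 such starts, at chr6:115360894-115361193, chr6:115362099-115362398 and chr6:115421816-115422115, all on the + strand. Agpat2 lies at chr2:26604368-26604667 (- strand), Plin2 at chr4:86670010-86670309 (- strand) and Pnpla2 at chr7:141454938-141455237 (+ strand). Capitals mark the nuclear receptor half-site AGGTCA, the C/EBP motif TTGCNNAA, the E-box CACGTG and the TATA motif TATAAA, searched on both strands, with no overlaps among the matches.
Pparg start 1: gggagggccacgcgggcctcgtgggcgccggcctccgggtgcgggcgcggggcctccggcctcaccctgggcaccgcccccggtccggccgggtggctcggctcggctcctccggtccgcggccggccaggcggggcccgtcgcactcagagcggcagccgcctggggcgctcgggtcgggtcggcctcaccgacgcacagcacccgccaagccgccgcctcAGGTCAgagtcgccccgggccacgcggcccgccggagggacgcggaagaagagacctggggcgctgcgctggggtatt
Pparg start 2: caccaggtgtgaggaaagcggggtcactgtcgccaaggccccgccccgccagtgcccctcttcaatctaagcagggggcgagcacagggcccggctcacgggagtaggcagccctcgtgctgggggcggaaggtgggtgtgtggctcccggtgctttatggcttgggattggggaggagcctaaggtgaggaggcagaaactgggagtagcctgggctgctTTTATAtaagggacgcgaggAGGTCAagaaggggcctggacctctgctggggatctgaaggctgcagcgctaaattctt
Pparg start 3: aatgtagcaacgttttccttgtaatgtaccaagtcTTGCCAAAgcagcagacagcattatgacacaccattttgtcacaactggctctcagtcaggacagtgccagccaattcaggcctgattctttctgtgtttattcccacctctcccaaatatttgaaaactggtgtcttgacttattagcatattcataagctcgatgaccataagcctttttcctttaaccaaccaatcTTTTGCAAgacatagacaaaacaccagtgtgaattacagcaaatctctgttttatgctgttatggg
Agpat2: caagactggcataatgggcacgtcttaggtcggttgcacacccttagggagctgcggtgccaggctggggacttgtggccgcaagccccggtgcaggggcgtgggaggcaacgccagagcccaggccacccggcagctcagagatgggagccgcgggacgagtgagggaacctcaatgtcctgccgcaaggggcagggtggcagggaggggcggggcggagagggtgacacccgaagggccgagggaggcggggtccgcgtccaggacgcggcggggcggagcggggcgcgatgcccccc
Plin2: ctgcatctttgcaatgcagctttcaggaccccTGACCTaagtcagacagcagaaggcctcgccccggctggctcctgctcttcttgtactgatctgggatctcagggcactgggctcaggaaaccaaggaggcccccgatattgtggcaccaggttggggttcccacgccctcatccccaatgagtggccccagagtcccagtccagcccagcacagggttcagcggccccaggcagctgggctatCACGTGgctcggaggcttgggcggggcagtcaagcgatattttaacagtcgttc
Pnpla2: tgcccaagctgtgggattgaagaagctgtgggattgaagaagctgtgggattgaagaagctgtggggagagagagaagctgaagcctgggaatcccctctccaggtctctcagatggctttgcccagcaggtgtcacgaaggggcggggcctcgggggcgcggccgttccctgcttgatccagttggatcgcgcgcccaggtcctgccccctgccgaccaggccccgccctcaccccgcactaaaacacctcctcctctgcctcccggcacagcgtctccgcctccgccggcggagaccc

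Starts 1 and 2 of Pparg each held 1 nuclear receptor half-site, beginning 28 and 9 bases before the start and reading in the direction of the gene. Start 2 also held the TATA motif on the opposite strand, so that it reads TTTATA along the gene from 29 bases before the start. Start 3 held the C/EBP motif at 2 places, beginning 215 bases before the start along the gene and 16 bases before it on the opposite strand. The 3 windows differed in base composition as well, with 80.3%, 62.7% and 40.3% G and C. Plin2 held a half-site on the opposite strand, beginning 218 bases before its start, and an E-box beginning 4 bases before it, and neither Agpat2 nor Pnpla2 held any of the 4 motifs. Among the 32851 promoters of the table, 16.3% held the half-site, 10.8% the C/EBP motif, 7.15% the E-box and 13.6% the TATA motif. A match is a run of letters and was not tested as a binding site. The array has 1 Pparg probe, and its values below are not assigned to any of the 3 starts.

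Pparg encodes PPARγ, the receptor without which fat cells do not form. Its log2 ratios were 2.39 on replicate 1, 0.69 on replicate 2 and 0.19 on replicate 3. The mean was 1.09 ± 1.15 (SD, n = 3), a 2.13-fold higher level in the channel labelled SA1-null, with a limma adjusted p of 0.685. Without replicate 1 the mean was 0.44. All arrays had the same sign, and the size differed between them by more than the mean itself. Only 3.49% of all genes had a larger SD over the arrays.

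The normalized log2 intensities of Pparg placed the difference of replicate 1 in the channel labelled WT. They were 10.27, 10.15 and 9.77 in the channel labelled SA1-null, against 7.88, 9.45 and 9.58 in the channel labelled WT. The low value was that of the WT channel of replicate 1, while the channels labelled SA1-null lay within 0.50 of each other. Pparg was the 1 measured member whose groups did not overlap, with the channel labelled SA1-null higher, as did 2.78% of all genes. No member had non-overlapping groups the other way (6.09% of all genes). Levels set across arrays rest on the normalization and on the scaling between arrays. Before these steps the median spot signals of Pparg were 1092, 588.75 and 702.5 in the channel labelled SA1-null. In the channel labelled WT they were 633.5, 697.75 and 646.5. There the groups overlapped, and the value standing apart was that of the channel labelled SA1-null of replicate 1. Which channel differed thus depends on the processing.

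The Pparg probe was spotted 10 times on each array, which separates spot noise from the difference between arrays. The 10 spots ran from 2.24 to 2.60 on replicate 1, from 0.55 to 0.77 on replicate 2 and from 0.13 to 0.29 on replicate 3. No spot of 1 array reached the range of another, and every spot lay above 0. The mean SD among spots of an array was 0.0857, and the SD among arrays was 13.5 times that. The median over the 172 probes above background with 10 spots was 7.90 times, and 16 of those probes had a larger SD among arrays than Pparg. Repeated spots share 1 labelled RNA and are not replicates of the cultures.

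**Figure D2:**
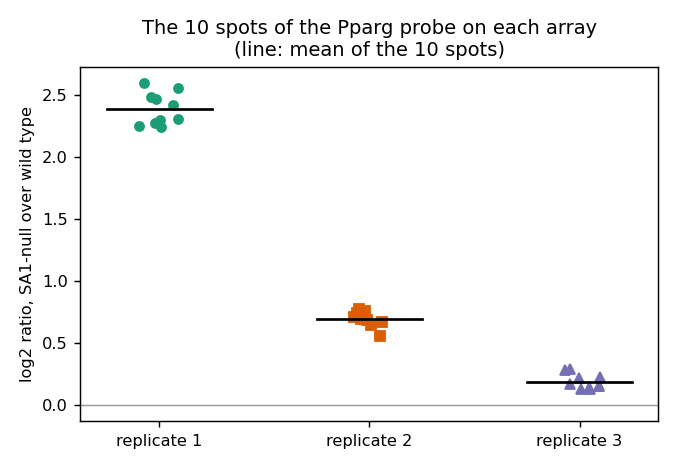
Log2 ratio of Cy3 (labelled SA1-null) over Cy5 (labelled WT) (y axis) for each of the 10 spots of the Pparg probe on the 3 arrays (x axis), with a line at the mean of the spots. The spots of each array form a tight group, at 2.24 to 2.60, 0.55 to 0.77 and 0.13 to 0.29.

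Cebpd encodes C/EBPδ, an early factor that is induced ahead of Pparg. Its log2 ratios were -1.51, -0.24 and -1.17 on replicates 1, 2 and 3. The mean was -0.97 ± 0.66 (SD, n = 3), a 1.96-fold lower level in the channel labelled SA1-null, with an unadjusted p of 0.0203 and a limma adjusted p of 0.548. This was the smallest p among the members. The log2 intensities were 13.72, 12.72 and 12.00 in the channel labelled SA1-null, against 15.23, 12.96 and 13.17 in the channel labelled WT. The channel labelled SA1-null was the lower one on each array, but the groups overlapped because both channels of replicate 1 were bright.

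The genes whose ratios ran most like those of Cebpd over the 3 arrays, by the root mean square difference, were Tmem268 (0.0670), Hacd3 (0.0856) and Rnf149 (0.105). Tmem268 had log2 ratios of -1.40, -0.22 and -1.14. None of the 3 genes passed the test (0 of 3, limma adjusted p from 0.520 to 0.623). With 3 arrays, likeness of this kind is a description.

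Zfp423 encodes a zinc finger protein that marks committed fat cell precursors and acts upstream of Pparg. Its main probe had log2 ratios of -0.88, 0.15 and 0.14 (mean -0.20 ± 0.59, SD, n = 3, limma adjusted p = 0.859). The second probe had -0.56, 0.038 and 0.12, the same signs on every array. The negative mean of both probes came from replicate 1 alone. The log2 intensities of the main probe were 7.32, 6.33 and 6.52 in the channel labelled SA1-null, against 8.20, 6.19 and 6.38 in the channel labelled WT, which was well above background on 2 of the 3 arrays. Its signal was thus close to background on replicates 2 and 3.

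**Figure D3:**
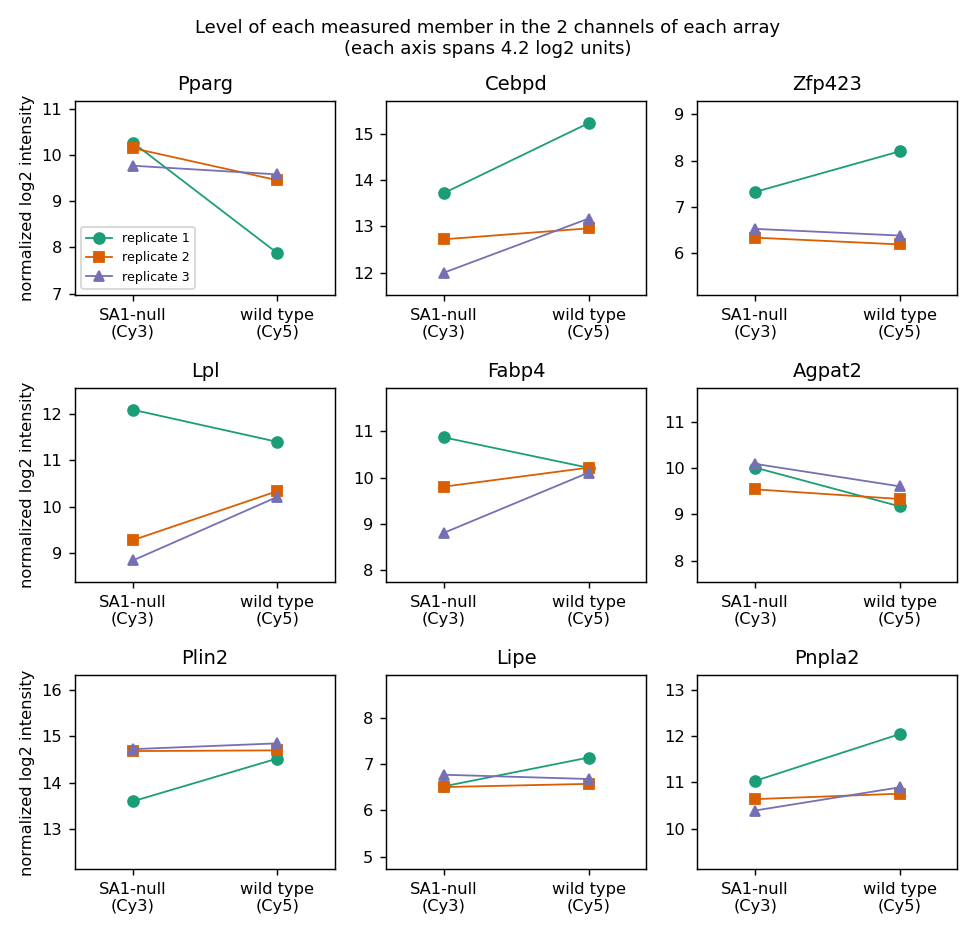
Normalized log2 intensity (y axis) of the 9 measured members in the channel labelled SA1-null (left) and the channel labelled WT (right), with a line joining the channels of each array. The Pparg values of the channel labelled SA1-null (9.77 to 10.27) all lie above those of the channel labelled WT (7.88 to 9.58), and for the other 8 genes the groups overlap.

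Lpl and Fabp4 handle fatty acids at the cell surface and inside the cell, and both are textbook PPARγ targets that macrophages also make. Lpl, the lipase that frees fatty acids from lipoproteins, had log2 ratios of 0.69, -1.06 and -1.38 (mean -0.58 ± 1.12, SD, n = 3, limma adjusted p = 0.742). Its log2 intensities were 12.09, 9.27 and 8.83 in the channel labelled SA1-null, against 11.40, 10.33 and 10.21 in the channel labelled WT. Replicate 1 stood apart, being brighter in both channels and of the opposite sign. Only 1.17% of all genes had a wider range over the arrays in the channel labelled SA1-null than the 3.26 of Lpl. The second Lpl probe had ratios of 0.92, -0.22 and -0.39, with the same sign as the first on each array but a mean of 0.11 ± 0.71. The probes thus disagree on the sign of the mean and were 0.84 and 0.99 apart on replicates 2 and 3.

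Fabp4, a carrier of fatty acids in the cytoplasm, ran the same way as Lpl. Its log2 ratios were 0.66, -0.41 and -1.30 (mean -0.35 ± 0.98, SD, n = 3, limma adjusted p = 0.825). The log2 intensities were 10.87, 9.80 and 8.81 in the channel labelled SA1-null, against 10.21, 10.21 and 10.11 in the channel labelled WT. In these normalized levels the spread lay in the channel labelled SA1-null. The channel labelled WT varied by 0.11, less than in 96.2% of all genes. Before normalization and scaling both channels varied. The median spot signals were 1555, 452 and 350 in the channel labelled SA1-null, against 3174, 1207 and 936 in the channel labelled WT. The second probe had ratios of 0.39, -0.65 and -1.34, and the third, above background in the channel labelled SA1-null on 2 arrays, had 0.34, -0.16 and -0.21. All 3 probes were positive on replicate 1 and negative on replicates 2 and 3.

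For both genes the sign differed by slide. On the slide of replicates 2 and 3 the mean was -1.22 for Lpl and -0.86 for Fabp4, against 0.69 and 0.66 on the slide of replicate 1. The difference between the slides passed the test for Lpl (1.91, limma adjusted p = 0.0297) and not for Fabp4 (1.51, limma adjusted p = 0.135). Among the other members it passed for Pparg alone (1.95, limma adjusted p = 0.0346), against 883 of all genes (4.78%). Since 1 slide holds 1 array, slide and culture cannot be told apart there. The version of Feature Extraction, the software that read the spots, also differed between the slides and cannot be told apart from them. The test of the slide difference takes its residual from replicates 2 and 3 alone. Without replicate 1, which leaves 2 arrays of 1 slide, the main probe of Lpl passed as lower in Cy3, labelled SA1-null (limma adjusted p = 0.0402). In either direction 284 of all genes passed (1.54%), and Fabp4 did not (adjusted p = 0.332). The second Lpl probe was at -0.22 and -0.39 on those arrays. With the slide as a term, Lpl was at -0.26 and did not pass (adjusted p = 0.463).

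Agpat2 makes phosphatidic acid on the way to triglyceride, and its loss in humans causes a lack of body fat. Its log2 ratios were 0.84, 0.21 and 0.49 (mean 0.51 ± 0.32, SD, n = 3), a 1.42-fold higher level in the channel labelled SA1-null, with an unadjusted p of 0.0408 and a limma adjusted p of 0.655. A second probe gave 0.67, 0.27 and 0.45 (mean 0.46 ± 0.20), within 0.17 of the first on each array. The log2 intensities of the main probe were 10.01, 9.54 and 10.10 in the channel labelled SA1-null, against 9.18, 9.34 and 9.61 in the channel labelled WT. Agpat2 was the member with several probes whose probes all lay above 0 on all arrays. The groups overlapped by a narrow margin, and the SD over arrays was smaller than in 50.4% of all genes.

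Plin2 coats lipid droplets in most cell types. Its log2 ratios were -0.92, -0.015 and -0.13 (mean -0.36 ± 0.50, SD, n = 3, limma adjusted p = 0.722). The log2 intensities were 13.59, 14.68 and 14.72 in the channel labelled SA1-null, against 14.52, 14.70 and 14.85 in the channel labelled WT. In these normalized levels the channels differed by little on replicates 2 and 3, and the low value was that of the channel labelled SA1-null of replicate 1. Before normalization and scaling the median spot signals were 8352, 17077 and 18865 in the channel labelled SA1-null. In the channel labelled WT they were 54682.5, 37164 and 31074.9. There replicate 1 was lowest in the channel labelled SA1-null and highest in the channel labelled WT. Without replicate 1 the mean was -0.070.

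Pnpla2 encodes the lipase that starts triglyceride breakdown, and Lipe encodes hormone-sensitive lipase, which acts after it. Pnpla2 had log2 ratios of -1.01, -0.12 and -0.50 (mean -0.54 ± 0.45, SD, n = 3, unadjusted p = 0.0581, limma adjusted p = 0.672). The log2 intensities were 11.03, 10.64 and 10.39 in the channel labelled SA1-null, against 12.05, 10.76 and 10.90 in the channel labelled WT. The channel labelled SA1-null was the lower one on each array by the main probe. The second probe gave -1.02, -0.45 and 0.63, so the probes had opposite signs on replicate 3.

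Lipe gave little signal, with median spot signals of 51.5, 42 and 62 over local backgrounds of 24, 29.5 and 26 in the channel labelled SA1-null, against 274.5, 85 and 81.5 over 65, 51 and 48 in the channel labelled WT. Its main probe had log2 ratios of -0.62, -0.069 and 0.092 (mean -0.20 ± 0.37, SD, n = 3, limma adjusted p = 0.803). The other Lipe probe gave -0.34, -0.10 and 0.084. The main probe's log2 intensities were 6.52, 6.51 and 6.77 in the channel labelled SA1-null, against 7.14, 6.57 and 6.68 in the channel labelled WT. Both probes placed replicate 1 lowest, and replicates 2 and 3 lay close to 0.

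Adipoq, which encodes the fat cell hormone adiponectin, was not well above background in either channel on any array. Its median spot signals were 36, 33 and 33 in the channel labelled SA1-null over local backgrounds of 25, 25 and 26. In the channel labelled WT they were 69, 63 and 55.5 over 54, 50 and 53. No fold is given, as neither channel measured it. Of 6 mature fat cell markers, Adipoq, Lep and Plin1 were never above background, Cfd and Retn were above it on 1 array in 1 channel, and Cidec alone was tested, with log2 ratios of -0.0061, 0.17 and -0.12. Of 12 listed fibroblast markers, 11 exceeded background in Cy3 as well as Cy5 on each array.

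Around the members, 6 lists of genes with roles in fat cell formation and lipid handling held 112 different genes that were tested. None of them passed an adjusted p of 0.05 (0 of 112, limma), and 18 (16.1%) had an unadjusted p under 0.05, against 7.49% of all genes. As counts across genes, these were not tested against the background.

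Of 29 adipogenic transcription factors and cofactors, 18 had a mean above 0 and 11 below, with a median of 0.11. The 3 with the smallest p were Klf4, a reprogramming factor (log2 ratios 2.51, 1.63 and 1.16, adjusted p = 0.198), Ebf2, a factor of brown fat precursors (1.18, 0.51 and 0.98, adjusted p = 0.343), and Egr2, also called Krox20, which promotes early adipogenesis (-0.48, -0.92 and -1.31, adjusted p = 0.396). Each kept its sign on all arrays, with Klf4 and Ebf2 above 0 and Egr2 below.

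Of 23 inhibitors of adipogenesis, 17 had a mean above 0 and 6 below, with a median of 0.16, and 8 lay above 0 on all arrays against 1 below. Of all 18485 genes, 8433 had a mean above 0, and 13.3% lay above 0 on all arrays against 19.1% below. The list's medians were 0.38, 0.11 and 0.29 on replicates 1, 2 and 3. Ccn5, a secreted matricellular protein gene, had log2 ratios of 0.84, 1.79 and 1.62 (adjusted p = 0.199). Dlk1, also called Pref-1, which holds precursors undifferentiated, had 0.83, 0.71 and 1.62 (adjusted p = 0.364). Trib3, a pseudokinase gene of the stress response, had 3.09, 1.01 and 0.96 (adjusted p = 0.534). All 3 kept their sign without passing the test.

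Of 19 genes of lipid uptake and lipolysis in the bloodstream, 11 had a mean above 0 and 8 below, with a median of 0.21. Angptl4, which inhibits lipoprotein lipase, had log2 ratios of -0.81, -1.23 and -1.54 (adjusted p = 0.195). Apoe, a lipoprotein component that macrophages make in quantity, had -6.18, -1.92 and -2.20 (adjusted p = 0.471). Fabp3, a fatty acid carrier of heart and muscle, had 1.14, 0.70 and 0.28 (adjusted p = 0.560). Angptl4 and Apoe were below 0 on every array and Fabp3 above it.

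Of 25 genes of triglyceride synthesis and the droplet coat, 11 had a mean above 0 and 14 below, with a median of -0.023. Scd1, a fatty acid desaturase gene, had log2 ratios of 1.39, 0.35 and 0.93 (adjusted p = 0.497). Cavin1, a component of caveolae, had 1.12, 0.28 and 0.99 (adjusted p = 0.517). Gpat3, an acyltransferase gene acting ahead of Agpat2, had -1.66, -0.21 and -0.76 (adjusted p = 0.655). Gpat3 and Agpat2, successive steps of 1 pathway, thus had ratios of opposite sign on every array, and neither passed the test. The other tested Agpat genes had means below 0 (-0.61 to -0.13), so the contrast is between these genes and not between the steps.

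Of 10 further genes of lipolysis, 6 had a mean above 0 and 4 below, with a median of 0.051. Mgll, which cleaves the last fatty acid from glycerol, had log2 ratios of -1.36, -0.89 and -0.93 (adjusted p = 0.186), and Hadh, an enzyme of fatty acid oxidation, had 0.20, 0.21 and 0.99 (adjusted p = 0.703). Of 7 adipokines and receptors, 4 had a mean above 0 and 3 below, with a median of 0.21. Cdh13, Rbp4 and Adipor2 had the smallest p there, with adjusted p from 0.717 to 0.724, and each had ratios of both signs.

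**Figure D4:**
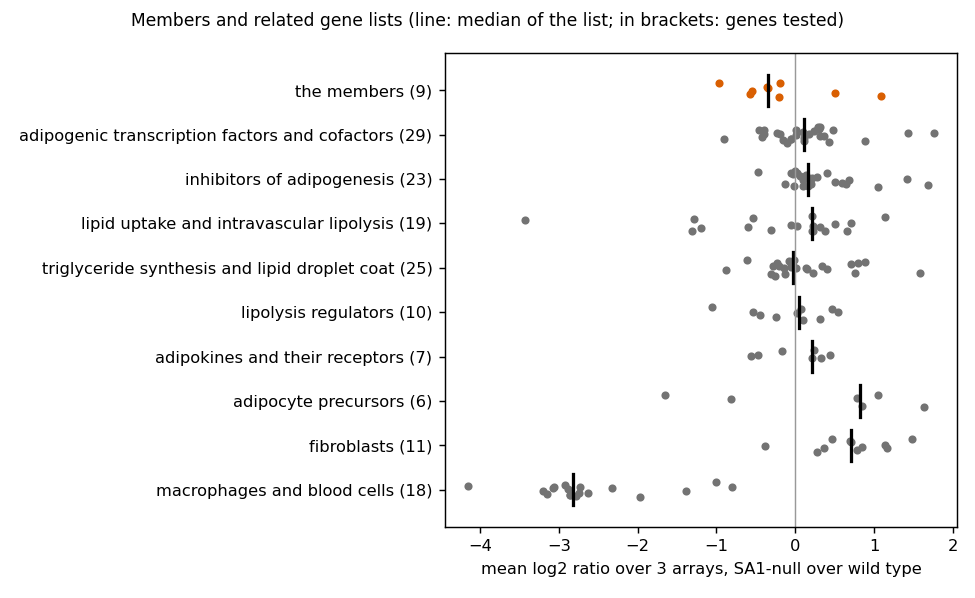
Mean log2 ratio of Cy3 (labelled SA1-null) over Cy5 (labelled WT) (x axis) for each tested gene of the members, the 6 related lists and 3 marker lists (y axis), with a line at each list's median. The related lists have medians between -0.023 and 0.21, and the macrophage and blood cell markers lie below 0 as a whole, with a median of -2.82.

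Markers of other cell types were read beside these genes. All 18 tested markers of macrophages and blood cells were below 0 on every array, 9 of them with a limma adjusted p under 0.05, and their median was -2.82. Of the 18, 16 exceeded background clearly in Cy3 as well as Cy5 on each array, and Itgam and Spi1 entered through the channel labelled WT, where they were brighter, so their sign was favoured by the filter. Tyrobp had log2 ratios of -3.02, -3.11 and -3.32 (adjusted p = 0.0273) and Msr1 had -2.58, -2.49 and -2.84 (adjusted p = 0.0273). The log2 of their summed level was 14.99, 13.08 and 12.80 in the channel labelled SA1-null, against 18.42, 15.81 and 15.77 in the channel labelled WT. Pparg, Lpl, Fabp4, Plin2 and Apoe are also known from macrophages. The part of these cells in the members' ratios was not tested.

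Of 6 tested markers of fat cell precursors, 4 had a mean above 0 and 2 below, with a median of 0.82, and none passed (0 of 6, limma, 5 with an unadjusted p under 0.05). Ly6a, which encodes Sca-1, had log2 ratios of 1.84, 1.38 and 1.70 (adjusted p = 0.0566). Pdgfrb had 1.07, 0.71 and 0.78 (adjusted p = 0.256), and Pdgfra had 0.87, 0.83 and 0.66 (adjusted p = 0.260). Cd34, a precursor marker that blood and vessel cells also carry, had -1.50, -1.01 and -2.44 (adjusted p = 0.260). Of 11 tested fibroblast markers, 10 had a mean above 0, with a median of 0.71, and none passed (0 of 11, 5 with an unadjusted p under 0.05). Only 5 of the 11 lay above 0 on all arrays. The medians of the fibroblast list were 1.11, 0.065 and 0.78 on replicates 1, 2 and 3. Pdgfra and Pdgfrb stand in both lists, and Dlk1 counts both as a precursor marker and as an inhibitor of adipogenesis. Over all genes, 7.49% had an unadjusted p under 0.05. Few markers of other types were measured, with 2 of endothelial cells, 4 of epithelial cells and 3 of skeletal muscle, and none passed (0 of 9, limma, with 2 epithelial ones at an unadjusted p under 0.05). These were Krt8, with log2 ratios of -0.53, -1.28 and -1.25 (adjusted p = 0.318), and Krt18, with -0.20, -0.75 and -1.31 (adjusted p = 0.623). Log2 intensities of Krt18 were 7.13, 11.43 and 10.93 in the channel labelled SA1-null, against 7.33, 12.18 and 12.25 in the channel labelled WT, so that replicate 1 was low in both. The part of all these markers in the members' ratios was not tested.

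The members varied more over the arrays than most genes. Their median SD was 0.59, against 0.32 over all genes. For 7 of the 9 measured members (77.8%) the largest ratio in size was that of replicate 1, against 9244 of the 18485 genes. The exceptions were Lpl and Fabp4, whose largest ratios were those of replicate 3. The fit with the slide as a term has 1 residual degree of freedom per gene before the spread is shared between genes. It comes from replicates 2 and 3. Pparg, Cebpd, Agpat2, Plin2 and Pnpla2 kept their direction in all 14 alternatives run on each gene, while Zfp423, Lpl, Fabp4 and Lipe did not. The former had 1 sign on every array, so leaving out a replicate or fitting by slide could not reverse their direction. For those with 1 probe, neither could the probe rules and the filters.

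**Figure D5:**
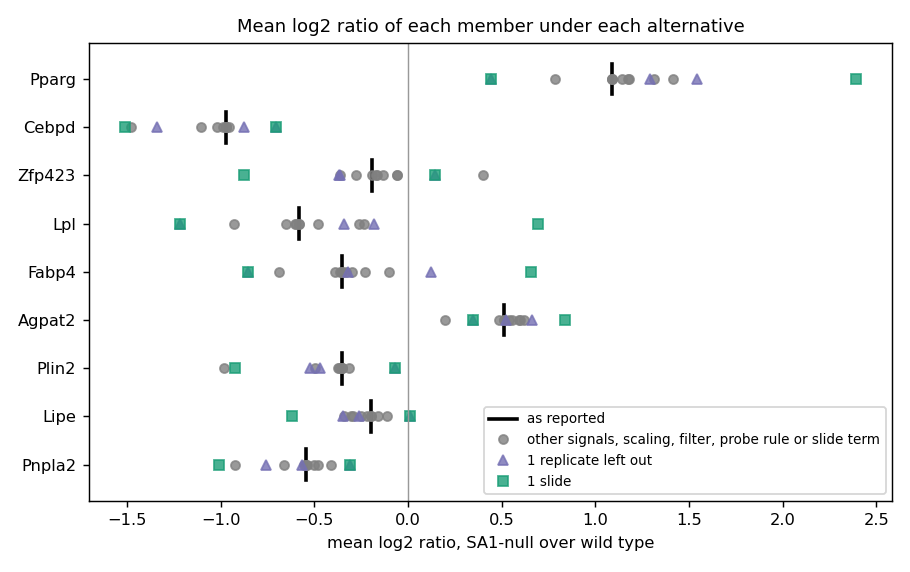
Mean log2 ratio of Cy3 (labelled SA1-null) over Cy5 (labelled WT) (x axis) of the 9 measured members (y axis) as reported (line) and under each alternative (symbols). Pparg runs from 0.44 to 2.39 and Cebpd from -1.51 to -0.70 without crossing 0, whereas Lpl and Fabp4 lie above 0 on the slide of replicate 1 and below it on the slide of replicates 2 and 3.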

How the data were processed

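Per the labels, RNA of cultures labelled SA1-null (Cy3) and WT (Cy5) was compared on 3 Agilent 2-colour arrays. Per the file headers, spots were read with Feature Extraction 10.1.1.1 (replicate 1) and 10.7.3.1 (replicates 2 and 3). The deposited scanner files hold spot and background intensity values and a log10 ratio of processed Cy5 over Cy3. The authors' deposited table holds log2 ratios made with limma, per the submitters' processing notes. They ran as Cy5 over Cy3 when set against the ratios computed here (r from 0.986 to 0.997 across probes, medians -0.020, -0.017 and -0.0064), and their centring is unknown.

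Median spot signals were background-corrected by normexp (offset 50) and normalized by loess within arrays in limma 3.58.1 (R 4.3.3). Control and flagged spots were left out, and no spot was saturated (0 on each array). Channel levels were scaled between arrays by Aquantile. Kept were 24015 of 41174 probes, those well above background in 1 channel on all 3 arrays, and the brightest probe stood for a gene. Well above background were 60.6% to 66.0% of probes in Cy3 and 62.0% to 67.0% in Cy5. The mean ratio was tested against 0 (lmFit and eBayes), with Benjamini-Hochberg adjustment over 18485 genes. The fit was tested on simulated data. Symbols and promoters come from RefSeq tables of GRCm38.p6. The labels call the replicates biological without naming separate embryos, so p-values measure the spread between these 3 arrays.

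The members and gene lists were chosen with earlier results of these data known. Named are all members, Stag1, up to 3 genes per list by smallest p, the 3 genes most like the member with the smallest p, and up to 4 markers per cell type. A gene that this rule also picks is not reported here. Figures were drawn with matplotlib 3.10.9. The alternatives were other background corrections, signals, scaling, filters, probe rules and variance models, the deposited values, separate channels, the slide, and each replicate left out. The difference between slides was tested after seeing the data.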

Additional observations from a re-analysis of the deposited data

How the results depend on the processing

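The count of genes passing an adjusted p of 0.05 was 58. It was 118 with no background subtraction, 265 with an offset of 0, 326 with processed signals, 34 with median centring, 92 with both channels above background, 142 with a robust trend and 1770 with the slide as a term. It was 0 with no filter on dim probes (1990 at an unadjusted p under 0.05) and 0 with the channels as separate samples (629). It was within 1.5 times with the deposited values (55) and with every probe on its own (77). Leaving out 1 replicate gave 0 to 284, with 284 without replicate 1 and 0 without replicate 2 (1295 unadjusted) or replicate 3 (737 unadjusted).

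The members' counts below are to be read beside those of all genes above. These were out of 18485 with the slide as a term and with each replicate left out. The count of members that passed was 0. It was 2 with the slide as a term (Pparg and Cebpd), and 0 to 1 with 1 replicate left out (Lpl, without replicate 1). The members' median log2 ratio, -0.35 as reported, was -0.070 without replicate 1 and -0.69 with median centring, where the median of all genes was -0.30. Relative to that shift, Pparg was at 1.08, Cebpd at -1.18, Plin2 at -0.69 and Agpat2 at 0.49, and Zfp423 and Lipe were above it by 0.019 and 0.076. Zfp423 was 0.40 with processed signals. With 1 replicate left out, Zfp423 ran from -0.37 to 0.15, Fabp4 from -0.86 to 0.12 and Lipe from -0.35 to 0.011. Within slides (1 array and 2 arrays, no test), Zfp423 was -0.88 and 0.15, Lpl 0.69 and -1.22, Fabp4 0.66 and -0.86, and Lipe -0.62 and 0.011. The causes were not tested. Zfp423 and Lipe are limited by signal close to background, and every value by 3 arrays of 1 dye order.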
